A study of Homo sapiens with 6 samples.

Results

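The genes described here encode the proteases that cut Notch receptors. They are the 8 rows of the deposited count table, of 12499 rows in all, whose symbol is *FURIN*, *ADAM10*, *ADAM17*, *PSEN2*, *NCSTN*, *APH1A*, *APH1B* or *PSENEN*. The rule uses names only and no measured value, and all 8 passed the expression filter. HaCaT, the only cell line sequenced, is an immortalized human keratinocyte line. One group (LV-*ATF7*) received lentivirus that expresses human *ATF7*, and the other (LV-NC) received a negative control virus. After 48 hours of infection, both were kept in high glucose for another 24 hours. Each group has 3 libraries, and no source used here states that these came from separate cultures, so p-values measure the spread between these libraries only.

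A Notch receptor is cut several times on its way to becoming a transcription factor. Furin, a proprotein convertase of the secretory pathway, cuts the precursor before it reaches the cell surface. After a ligand binds, a membrane-anchored metalloproteinase of the ADAM family sheds the extracellular part, and the gamma-secretase complex then cuts within the membrane and frees the intracellular domain. Gamma-secretase is built from a presenilin, which carries the catalytic site, nicastrin (*NCSTN*), which contacts the substrate, a scaffold subunit (*APH1A* or *APH1B*) and PEN-2 (*PSENEN*), which is needed for the presenilin to mature. ADAM10, ADAM17 and gamma-secretase also cut many other membrane proteins of keratinocytes, among them cadherins and growth factor precursors.

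Total counts ran from 16686472 to 20562768 per library. The level of *ATF7* itself, in CPM (counts scaled to library size by TMM), ran from 46.4 to 52.2 where the label reads LV-NC and from 21.9 to 28.0 where it reads LV-*ATF7* (log2 fold change -0.98, adjusted p = 1.89e-04 by edgeR's quasi-likelihood test). It was thus lower under the label that should carry more of it, and 43.8% of its exon bases are shared with other annotated genes. Every direction below follows the deposited labels and rests on them. All 10 keratinocyte markers on a fixed list had a row, with a summed level of 1393 to 2208 CPM in LV-NC and 6335 to 6800 CPM in LV-*ATF7*. Most of that difference came from *KRT5*, a basal keratin, at 266.4 and 3354 CPM on average. Its partner *KRT14* averaged only 8.06 and 1.55 CPM and was called lower, near the threshold (adjusted p = 0.0461 by edgeR's quasi-likelihood test). The groups overlapped for *KRT14*, with an SD of 6.69 CPM in LV-NC. *TP63*, a transcription factor of the squamous lineage, averaged 15.5 and 231.5 CPM, and *KRT6A* (63.1 and 19.4 CPM), *KRT17* (7.73 and 4.21 CPM) and *CDH1* (387.5 and 330.6 CPM) did not pass the test. Of 5 markers each for fibroblasts, melanocytes, immune cells and endothelium, 1, 1, 1 and 2 had a row, and the others were not analysed here. The fibroblast marker with a row, *COL1A1*, was 33.1 to 41.1 CPM in LV-NC and 15.1 to 18.9 CPM in LV-*ATF7*. The melanocyte marker *PMEL* was 1.87 to 2.20 and 3.42 to 6.03 CPM, and the immune marker *CD14* was 1.51 to 1.73 and 7.09 to 9.57 CPM. The endothelial sum was 1.12 to 5.50 CPM in LV-NC and 84.6 to 89.9 CPM in LV-*ATF7*, nearly all from *CDH5*. The part of these marker differences in the results below was not tested.

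Promoter sequences are shown for the members that carry the core of the cAMP response element (CRE), the site that the ATF/CREB family to which ATF7 belongs is known to bind. RefSeq windows on GRCh38.p14, from 250 bases before to 50 after a start site, were matched by symbol for 7 of the 8 members, with 10 windows in all, 4 of them for *FURIN*. *APH1B* had no entry. Both strands were searched for the whole CRE (TGACGTCA), for its 5-letter core TGACG, which the whole CRE contains, for the AP-1 site TGANTCA and for the RBPJ site TGGGAA, where RBPJ is the DNA-binding partner of cleaved Notch. No member held the whole CRE or the AP-1 site. The core was present in *ADAM10*, *ADAM17*, *NCSTN*, *APH1A* and *PSENEN*, once in each, and was not found in the windows of *FURIN* and *PSEN2*. Of the 10137 genes of the count table with a window, 34.2% held the core in the first one listed, and 24.6% of all 35116 windows did. The RBPJ letters were found in 3 of the 4 *FURIN* windows, the first listed among them, and in that of *PSENEN*. In the first window listed, 21.7% of the genes of the count table held these letters, and 24.0% of all 35116 windows did. A match of letters is a description and not a binding site. Each sequence is written 5′ to 3′ on the strand of its gene, and capitals mark the TGACG core or its reverse complement CGTCA.
*ADAM10* (chr15:58749658-58749957, minus strand): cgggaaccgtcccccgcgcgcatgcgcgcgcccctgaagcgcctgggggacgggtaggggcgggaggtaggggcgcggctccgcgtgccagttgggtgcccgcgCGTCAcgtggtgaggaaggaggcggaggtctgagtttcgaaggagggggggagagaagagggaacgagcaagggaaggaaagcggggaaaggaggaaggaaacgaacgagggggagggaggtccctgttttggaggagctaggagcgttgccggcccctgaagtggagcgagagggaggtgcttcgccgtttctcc
*ADAM17* (chr2:9555781-9556080, minus strand): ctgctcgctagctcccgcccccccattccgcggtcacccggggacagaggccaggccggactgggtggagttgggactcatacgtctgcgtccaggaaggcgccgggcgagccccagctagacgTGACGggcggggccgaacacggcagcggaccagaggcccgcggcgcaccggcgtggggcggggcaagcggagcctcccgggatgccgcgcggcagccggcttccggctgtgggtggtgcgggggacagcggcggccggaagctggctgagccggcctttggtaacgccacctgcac
*NCSTN* (chr1:160343133-160343432, plus strand): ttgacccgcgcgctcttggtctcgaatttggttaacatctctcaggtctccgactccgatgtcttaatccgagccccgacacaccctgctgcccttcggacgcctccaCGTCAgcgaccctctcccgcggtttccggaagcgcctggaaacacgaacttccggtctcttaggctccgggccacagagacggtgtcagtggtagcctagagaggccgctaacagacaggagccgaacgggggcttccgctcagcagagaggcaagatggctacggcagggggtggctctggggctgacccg
*APH1A* (chr1:150268967-150269266, minus strand): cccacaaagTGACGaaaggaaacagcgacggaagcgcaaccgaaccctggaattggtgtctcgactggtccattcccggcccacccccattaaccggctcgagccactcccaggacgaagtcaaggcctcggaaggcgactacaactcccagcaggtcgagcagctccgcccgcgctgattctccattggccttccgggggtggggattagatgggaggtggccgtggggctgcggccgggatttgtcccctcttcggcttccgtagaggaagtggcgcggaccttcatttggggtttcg
*PSENEN* (chr19:35745401-35745700, plus strand): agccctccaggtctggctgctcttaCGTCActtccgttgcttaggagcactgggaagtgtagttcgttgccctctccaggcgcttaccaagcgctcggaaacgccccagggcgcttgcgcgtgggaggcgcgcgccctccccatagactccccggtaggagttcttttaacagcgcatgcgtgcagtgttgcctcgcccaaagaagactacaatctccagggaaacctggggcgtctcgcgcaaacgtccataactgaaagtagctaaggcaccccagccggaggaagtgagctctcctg
The core lay 146, 126, 142, 241 and 225 bases before the start site in *ADAM10*, *ADAM17*, *NCSTN*, *APH1A* and *PSENEN*. By the counts given below, the genes that hold it rose in LV-*ATF7* (*ADAM10*, *APH1A*), fell (*NCSTN*) or did not pass the test (*ADAM17*, *PSENEN*). *FURIN*, without it, fell.

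Between the groups, 5 of the 8 members had an adjusted p under 0.05. *APH1A*, *APH1B* and *ADAM10* were higher in LV-*ATF7*, *FURIN* and *NCSTN* were lower, and *ADAM17*, *PSEN2* and *PSENEN* did not pass. Of all 12462 genes tested, 67.6% passed, 34.7% higher and 32.9% lower, so a share of 62.5% of the members is close to that of genes at large. The members' median log2 fold change was -0.04, and that of all genes was 0.00016. The libraries of the groups did not overlap for the same 5 members, against 72.7% of all genes (38% higher and 34.7% lower). Scaling by library size only moved the median of all genes by -0.16 on the log2 scale, and 42.4% of the calls were then higher, against 51.3%. In bulk RNA, fewer cells that express a gene and less RNA per cell cannot be told apart. Among the members called, the largest difference was a fold of 3.42, for *APH1B*, and the smallest on the log2 scale a fold of 0.814, for *NCSTN*. The number called was 4 without LV-NC replicate 2 or replicate 3, 3 without LV-*ATF7* replicate 1 or replicate 2, and 6 without LV-NC replicate 1.

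**Figure D1:**
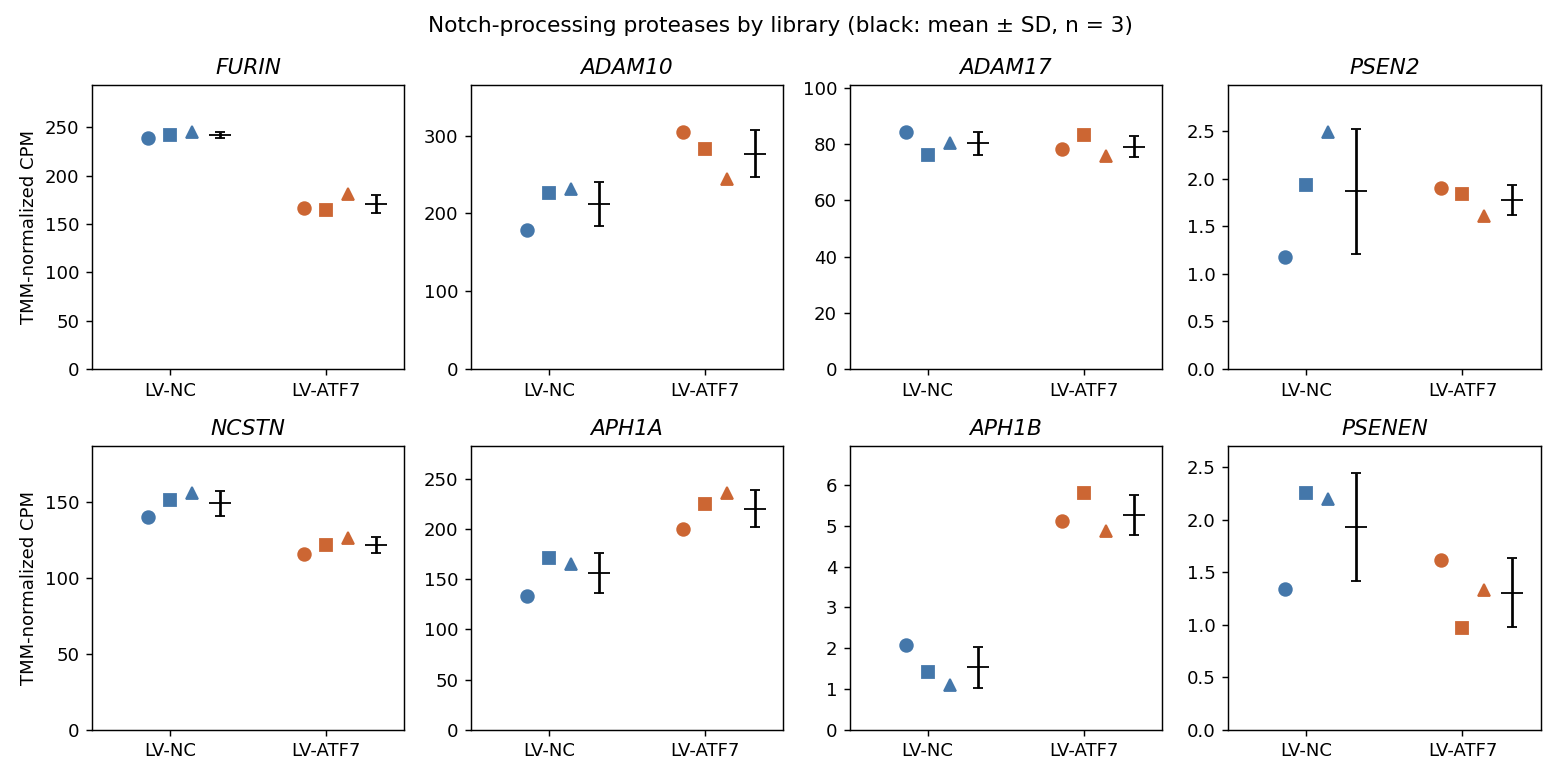
TMM-normalized CPM of the 8 members in each library, with LV-NC in blue and LV-*ATF7* in orange, circles, squares and triangles for replicates 1, 2 and 3, and black bars for the mean ± SD (n = 3). The groups stand apart for *FURIN*, *ADAM10*, *NCSTN*, *APH1A* and *APH1B* and overlap for *ADAM17*, *PSEN2* and *PSENEN*, of which the last pair lie under 3 CPM.

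*FURIN* (ENSG00000140564, GRCh38 chr15:90868592-90883458 in GENCODE 29, plus strand) makes the first cut, inside the cell. Its normalized expression was 238.6, 241.7 and 244.9 CPM in LV-NC replicates 1 to 3 and 166.8, 164.2 and 180.8 CPM in LV-*ATF7* replicates 1 to 3. All 3 LV-*ATF7* libraries lay below all LV-NC libraries, which were within a few CPM of each other. The means were 241.7 ± 3.12 and 170.6 ± 8.93 CPM (SD, n = 3 each), a log2 fold change of -0.50 (standard error 0.084, adjusted p = 9.55e-04 by edgeR's quasi-likelihood test). None of its exon bases is shared with another annotated gene, and its log2 fold change lay between -0.67 and -0.47 over 13 alternatives, with a highest adjusted p of 0.0106.

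*ADAM10* (ENSG00000137845, chr15:58588807-58749978, minus strand) is the sheddase best known for ligand-dependent cleavage of Notch1. Its level was 179.0, 226.3 and 231.0 CPM in the LV-NC libraries and 304.4, 282.3 and 243.9 CPM in the LV-*ATF7* libraries. The groups did not overlap, but LV-*ATF7* replicate 3 stood only slightly above LV-NC replicates 2 and 3. The log2 fold change of *ADAM10* was 0.38 with a standard error of 0.13 (95% confidence interval 0.080 to 0.69, adjusted p = 0.0309 by edgeR's quasi-likelihood test). The call was lost with scaling by library size only (log2 fold change 0.23, adjusted p = 0.146) and with a block for replicate number (adjusted p = 0.0531). Leaving out replicate 2 or 3 of LV-NC also lost it (adjusted p = 0.0541 and 0.0507), as did leaving out replicate 1 or 2 of LV-*ATF7* (0.115 and 0.0913), while the direction held in every alternative run.

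*ADAM17* (ENSG00000151694, chr2:9488486-9556732, minus strand) is the sheddase that releases TNF and several EGF receptor ligands and can also cut Notch. It was 84.3, 76.1 and 80.5 CPM in LV-NC and 78.1, 83.4 and 75.9 CPM in LV-*ATF7*, so that the groups lay over each other. The log2 fold change was -0.02 (95% confidence interval -0.23 to 0.19, adjusted p = 0.856 by edgeR's quasi-likelihood test). In the annotation, 13.6% of its exon bases lie opposite other genes, most of them opposite *IAH1*, which averaged 12.2 CPM in LV-NC and 25.2 CPM in LV-*ATF7*. Whether counting used the strand is not given in the sources used here.

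The log2 ratio of *ADAM17* to *ADAM10* within each library was compared directly. It was -1.09, -1.57 and -1.52 in LV-NC and -1.96, -1.76 and -1.68 in LV-*ATF7*, lower in all 3 LV-*ATF7* libraries than in any LV-NC library. The difference between the group means was -0.41 (two-sided exact permutation test, p = 0.10, which is the lowest value that 3 libraries against 3 allow, and 0.15 after Benjamini-Hochberg adjustment over 3 pairs of genes). LV-NC replicate 1 lay farthest from the rest of its group, and without it the difference was -0.25.

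Among the gamma-secretase subunits, *APH1A* (ENSG00000117362, chr1:150265399-150269580, minus strand) is the scaffold subunit that most cells use. It was 133.6, 171.1 and 164.9 CPM in LV-NC and 200.1, 225.4 and 236.0 CPM in LV-*ATF7*. Every LV-*ATF7* library lay above every LV-NC library. The means were 156.5 ± 20.1 and 220.5 ± 18.4 CPM (SD, n = 3 each), a log2 fold change of 0.49 (standard error 0.12, adjusted p = 0.00682 by edgeR's quasi-likelihood test). It was called in all 13 alternatives, between 0.33 and 0.56, and 14.1% of its exon bases lie opposite *C1orf54*, which was not analysed here.

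*APH1B* (ENSG00000138613, chr15:63276018-63309126, plus strand), the alternative scaffold subunit, differed most. It had 39, 27 and 19 counts in LV-NC and 92, 114 and 88 counts in LV-*ATF7*, or 2.09, 1.42 and 1.10 CPM against 5.14, 5.81 and 4.87 CPM. The exact Poisson 95% intervals, which cover counting error only, reached at most 53.3 counts in LV-NC and went no lower than 70.6 counts in LV-*ATF7*. The log2 fold change was 1.77 (standard error 0.26, 95% confidence interval 1.18 to 2.37, adjusted p = 4.77e-04 by edgeR's quasi-likelihood test). It was called in all 13 alternatives, between 1.55 and 2.12.

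The shift between these scaffold subunits was compared within libraries. The log2 ratio of *APH1B* to *APH1A* was -5.98, -6.89 and -7.19 in LV-NC and -5.28, -5.27 and -5.59 in LV-*ATF7*. All 3 LV-*ATF7* libraries were higher, with a difference of 1.31 between group means (two-sided exact permutation test, p = 0.10, 0.15 after adjustment over the 3 pairs). Per kilobase of exon, *APH1B* made up 0.978%, 0.520% and 0.420% of the summed level of both genes in LV-NC and 1.596%, 1.604% and 1.29% in LV-*ATF7*. *APH1A* thus accounted for nearly all scaffold transcripts in each library of either group. Leaving out LV-NC replicate 1, the highest of its group, gave a difference of 1.66.

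*NCSTN* (ENSG00000162736, chr1:160343272-160358952, plus strand) encodes nicastrin, the large glycoprotein subunit. It was 140.2, 151.1 and 155.8 CPM in LV-NC and 115.8, 121.8 and 126.3 CPM in LV-*ATF7*. The LV-*ATF7* libraries were lower without overlap, and the difference was the smallest among the members called, with a log2 fold change of -0.30 (standard error 0.087, adjusted p = 0.0163 by edgeR's quasi-likelihood test). The call was lost on leaving out replicate 1 of LV-*ATF7* (log2 fold change -0.26, adjusted p = 0.0684) or its replicate 2 (log2 fold change -0.30, adjusted p = 0.0656). As *APH1A* rose where *NCSTN* fell, the ratio of *APH1A* to *NCSTN* per kilobase of exon, chosen after the values were seen and so given as a description only, was 1.146, 1.36 and 1.27 in LV-NC and 2.08, 2.22 and 2.25 in LV-*ATF7*.

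**Figure D2:**
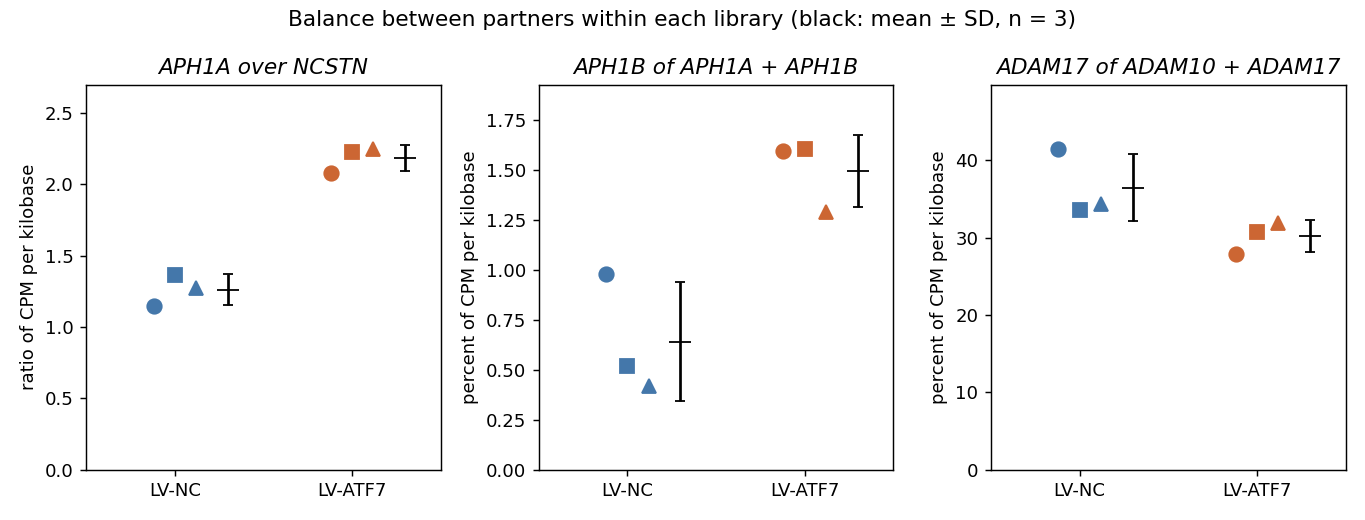
Balance between partner genes within each library, with replicates marked as circles, squares and triangles and black bars for the mean ± SD (n = 3): *APH1A* over *NCSTN* as a ratio of CPM per kilobase of exon, and the percent that *APH1B* and *ADAM17* make up of their pair. *APH1A* over *NCSTN* lies between 1.146 and 1.36 in LV-NC and between 2.08 and 2.25 in LV-*ATF7*, and *ADAM17* makes up 33.6% to 41.4% of its pair in LV-NC and 27.9% to 31.9% in LV-*ATF7*.

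*PSEN2* (ENSG00000143801, chr1:226870184-226896105, plus strand), a presenilin and so a catalytic subunit, had few counts. These were 22, 37 and 43 counts in LV-NC and 34, 36 and 29 counts in LV-*ATF7*. The LV-*ATF7* counts fell within the range of LV-NC. The log2 fold change was -0.07 with a 95% confidence interval from -0.77 to 0.64 (adjusted p = 0.859 by edgeR's quasi-likelihood test), so that changes within this interval could not be told from none in these libraries. Its log2 ratio to *NCSTN* differed by 0.29 between the groups (two-sided exact permutation test, p = 0.50, also 0.50 after adjustment), with -6.86, -6.26 and -5.95 in LV-NC around -5.91, -6.03 and -6.28 in LV-*ATF7*.

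*PSENEN* (ENSG00000205155, chr19:35745114-35747519, plus strand) encodes PEN-2, the smallest subunit. It had 25, 43 and 38 counts in LV-NC and 29, 19 and 24 counts in LV-*ATF7*, or 1.34, 2.25 and 2.20 CPM against 1.62, 0.968 and 1.33 CPM. LV-NC replicate 1 lay with the LV-*ATF7* libraries and not with the other LV-NC libraries. The log2 fold change was -0.57 (95% confidence interval -1.29 to 0.16, adjusted p = 0.143 by edgeR's quasi-likelihood test). Without LV-NC replicate 1 it was -0.80 and passed the threshold (adjusted p = 0.0145), as it did with limma voom and sample quality weights (log2 fold change -0.94, adjusted p = 0.00148). Of its exon bases, 56.5% are shared with other annotated genes, 41.0% on the opposite strand, and how reads there were counted is not given in the sources used here, so its level is uncertain. Of those genes, *U2AF1L4* had a row in the table, with 0.958 and 0.981 CPM on average in LV-NC and LV-*ATF7*.

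**Figure D3:**
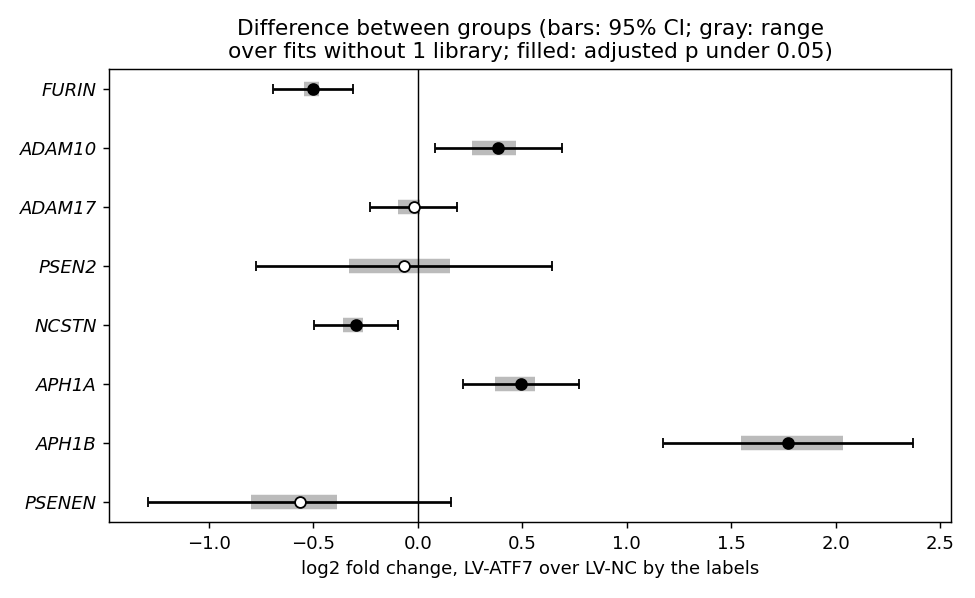
Change of each member on the log2 scale, labeled LV-*ATF7* relative to LV-NC, with bars for the 95% confidence interval, gray bands for the range over the 6 fits that each left out 1 library, and filled points for an adjusted p under 0.05. *APH1B* stands apart at 1.77, the intervals of *PSEN2* and *PSENEN* are the widest, and that of *ADAM17*, from -0.23 to 0.19, is centered near 0.

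Levels of different genes were compared per kilobase of exon, with exons of all transcripts of a gene counted once. In LV-NC the order was *FURIN* (51.1 ± 0.659 CPM per kilobase), *APH1A* (45.1 ± 5.78), *NCSTN* (35.7 ± 1.93), *ADAM10* (13.1 ± 1.78), *ADAM17* (7.47 ± 0.382), *PSENEN* (1.05 ± 0.278), *PSEN2* (0.498 ± 0.176) and *APH1B* (0.279 ± 0.092), each as mean ± SD over 3 libraries. Only the ranges of *PSEN2* and *APH1B* overlapped among neighbors in this order. In LV-*ATF7*, *APH1A* (63.5 ± 5.31 CPM per kilobase) came before *FURIN* (36.1 ± 1.89), and *APH1B* (0.959 ± 0.089) came before *PSENEN* (0.707 ± 0.177) and *PSEN2* (0.474 ± 0.041), with no overlap between neighbors. On this scale, nicastrin and *APH1A* transcripts stood above those of *PSEN2* and *PSENEN*, although all belong to the same complex. The level of *PSENEN* is uncertain, as given above. In the deposited FPKM values, treated below, *NCSTN* and *PSENEN* averaged 1.28 and 0.793 in LV-NC. Counting only the exon bases that no other gene shares, *PSENEN* came to 2.40 and 1.62 CPM per kilobase in LV-NC and LV-*ATF7*, still below *ADAM17* at 8.65 and 8.53. On that scale *APH1A* and *FURIN* overlapped in LV-NC, at 52.5 ± 6.73 and 51.1 ± 0.659 CPM per kilobase. In LV-*ATF7*, *PSENEN* (1.62) then came before *APH1B* (0.959) without overlap, the reverse of their order over all exon bases.

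**Figure D4:**
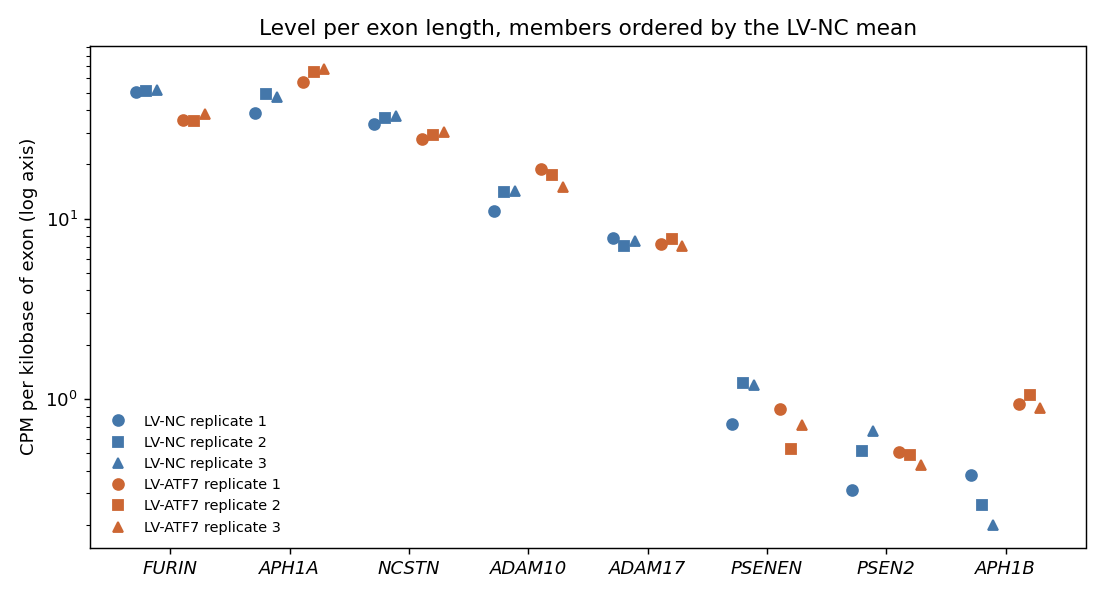
Level per exon length of each member in each library, in CPM per kilobase of exon on a log axis, with LV-NC in blue and LV-*ATF7* in orange and replicates 1, 2 and 3 as circles, squares and triangles. *FURIN*, *APH1A*, *NCSTN*, *ADAM10* and *ADAM17* lie between 7.06 and 68.0, while *PSENEN*, *PSEN2* and *APH1B* lie between 0.200 and 1.22.

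For each member but *APH1B*, the gene whose pattern over the 6 libraries was most like it was found among genes averaging 50 counts or more, by the root mean square difference of log2 CPM after centering each gene on its own mean. This gave *TSC22D4* for *FURIN* (difference 0.025), *IFIT1* for *ADAM10* (0.032), *FOXO1* for *ADAM17* (0.024), *CIAO1* for *NCSTN* (0.020) and *PRR13* for *APH1A* (0.038). *PSEN2* and *PSENEN*, with few counts, had less close matches, *CD109* for *PSEN2* (0.058) and *SFR1* for *PSENEN* (0.1005). Each match is the smallest difference over 11175 or 11176 genes and only 6 libraries, so it describes a likeness and shows no link. *ADAM17* itself ranged over only 0.15 on the log2 scale.

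The proteases were then set beside genes that act with them, are cut by them or encode related proteases. These made 9 lists of 63 genes, of which 58 were tested. Of these, 26 were higher and 16 lower in LV-*ATF7*, or 72.4%, against 67.6% of all genes, with a median log2 fold change of 0.32. Each count below is a description of its list and not a test.

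Among the substrates and their ligands, 4 of 8 Notch receptors and ligands were higher, 2 were lower and 2 did not pass. The largest changes were in *JAG2* (log2 fold change 2.99, adjusted p = 2.11e-06 by edgeR's quasi-likelihood test) and *NOTCH3* (2.42) on one side and in *DLL4* (-3.74) and *NOTCH2* (-1.22) on the other. *NOTCH1* averaged 652.3 ± 36.3 CPM in LV-NC and 1056 ± 63.2 CPM in LV-*ATF7* (SD, n = 3 each). It was called higher at a log2 fold change of 0.70 (adjusted p = 4.51e-04 by edgeR's quasi-likelihood test), and also in each of 13 alternatives. The authors reported the opposite, with *NOTCH1* mRNA and protein lowered by *ATF7* overexpression in HaCaT cells in high glucose. Like that of *ATF7*, the direction of *NOTCH1* here rests on the labels, and the reason for the difference was not tested. Of 18 other membrane proteins known to be shed or cut by these proteases, 10 were higher and 5 lower. *NECTIN1*, an adhesion molecule, averaged 262.6 ± 44.7 CPM in LV-NC and 1173 ± 92.4 CPM in LV-*ATF7* (SD, n = 3 each), and *SDC1*, a heparan sulfate proteoglycan, 94.2 ± 1.72 and 332.3 ± 36.3 CPM. *EFNB2*, an ephrin ligand, fell from 72.6 ± 10.6 to 8.45 ± 0.370 CPM, and *AREG*, an EGF receptor ligand released by ADAM17, from 39.2 ± 1.57 to 11.03 ± 0.868 CPM. These 4 substrates were called in each of 13 alternatives.

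Of the 6 TspanC8 tetraspanins, which escort ADAM10 out of the endoplasmic reticulum, *TSPAN5* was 44.8, 32.8 and 30.9 CPM in LV-NC and 10.6, 11.3 and 13.1 CPM in LV-*ATF7* (log2 fold change -1.63, adjusted p = 9.03e-05 by edgeR's quasi-likelihood test). *TSPAN10*, at 34.5 counts on average, was higher (log2 fold change 0.68), a call lost in 8 of 13 alternatives, and the other 4 did not pass. Of the 3 carriers of ADAM17, *RHBDF1*, which encodes iRhom1, was 33.0, 25.2 and 29.3 CPM in LV-NC and 108.2, 101.4 and 118.9 CPM in LV-*ATF7*. Its log2 fold change was 1.91 (adjusted p = 9.12e-06), while *RHBDF2* (0.25) and *FRMD8* (0.52) did not pass. *FRMD8* was 122.3 CPM in LV-NC replicate 1 and 243.1 and 241.0 CPM in LV-NC replicates 2 and 3. It passed in 3 of 13 alternatives, among them the fit without LV-NC replicate 1.

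Of the 4 metalloproteinase inhibitors tested, *TIMP3*, which encodes an inhibitor of ADAM17, was 13.1, 12.3 and 13.1 CPM in LV-NC and 172.6, 173.6 and 183.3 CPM in LV-*ATF7*. Its log2 fold change of 3.78 (adjusted p = 5.64e-07 by edgeR's quasi-likelihood test) stood against falls of 1.07 for *TIMP2* and 0.65 for *TIMP1*, which were also called. *RECK* did not pass (log2 fold change -0.44). Of 6 other membrane ADAM proteases, 4 were higher and 1 lower. *ADAM19* rose by 1.26 on the log2 scale and *ADAM8* by 0.68, a call lost with library size only and without any LV-*ATF7* library, and *ADAM9* fell by 0.67. *ADAM12* was also called higher, with 1, 2 and 2 counts in LV-NC and 29, 41 and 39 counts in LV-*ATF7*, too few for a useful fold change. The other higher gene was *ADAM28* (log2 fold change 0.53), a call lost in 5 of 13 alternatives.

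All 6 of the other proprotein convertases tested were called, 3 higher and 3 lower. *PCSK6* averaged 4.77 ± 0.419 CPM in LV-NC and 31.3 ± 1.95 CPM in LV-*ATF7*, and *PCSK4* 2.70 ± 0.806 and 11.7 ± 1.26 CPM (SD, n = 3 each). *PCSK5* fell from 44.1 ± 7.43 to 14.2 ± 1.58 CPM and *PCSK7* from 73.8 ± 1.85 to 38.0 ± 3.41 CPM.

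Another list held 3 genes of gamma-secretase assembly, trafficking or activation. *GSAP*, which encodes a gamma-secretase activating protein, was 5.09, 1.10 and 1.56 CPM in LV-NC and 38.1, 42.0 and 37.5 CPM in LV-*ATF7*. Its log2 fold change was 3.92 (adjusted p = 1.65e-04 by edgeR's quasi-likelihood test) and 3.50 to 4.86 over 13 alternatives. Whether *GSAP* bears on the cleavage of Notch in these cells was not tested. *RER1*, a retrieval receptor for unassembled subunits, was 98.6, 133.1 and 122.6 CPM in LV-NC and 76.9, 74.3 and 81.2 CPM in LV-*ATF7* (log2 fold change -0.61, adjusted p = 0.00278), and *TMED10* did not pass (adjusted p = 0.0581). Of 4 signal peptide peptidases, which are aspartyl proteases of the membrane like the presenilins, *SPPL2A* fell by 0.83 on the log2 scale and *SPPL2B* rose by 0.52, and *SPPL3* and *HM13* did not pass. The call of *SPPL2B* was lost with library size only, without replicate 2 or 3 of LV-NC and without replicate 3 of LV-*ATF7*.

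**Figure D5:**
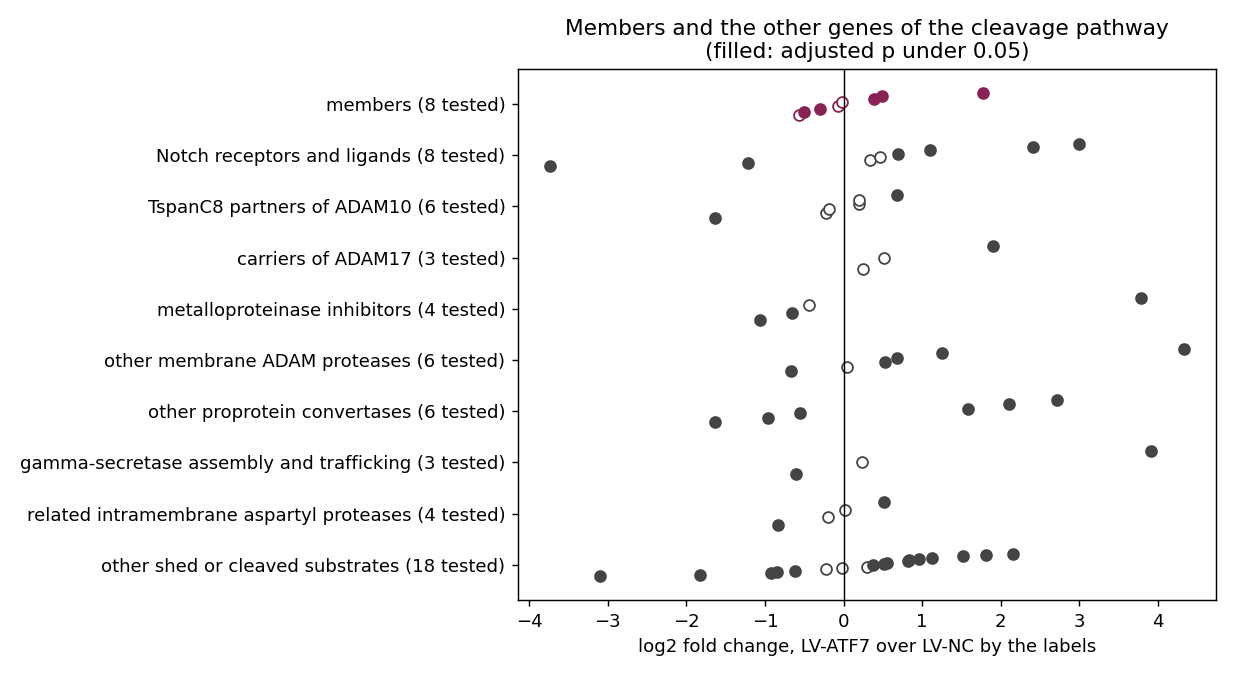
Change on the log2 scale, labeled LV-*ATF7* relative to LV-NC, of the 8 members, in purple, and of the tested genes of the 9 other lists, in gray, with filled points for an adjusted p under 0.05. Apart from *APH1B* at 1.77, the members lie between -0.57 and 0.49, and the other lists start at -3.74 for *DLL4* and end at 3.92 for *GSAP* and the point of *ADAM12*, a gene with at most 2 counts in any LV-NC library.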

How the data were processed

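Poly(A) mRNA libraries from HaCaT cells were sequenced on an Illumina NovaSeq platform, 3 per group. Per gene, the authors deposited raw counts of reads and FPKM values side by side, and per the labels the genome build is GRCh38. The aligner, counting program, annotation and strandedness are not given in the sources used here. The table also holds the fold changes and p-values of the authors' own comparison, which were not used.

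Samples were grouped by their labels. edgeR 4.0.16 in R 4.3.3 was used for TMM scaling of the counts and for the quasi-likelihood test (glmQLFit, glmQLFTest) of LV-*ATF7* against LV-NC, with no covariate. After filterByExpr, 12462 genes were tested, p-values were adjusted over all of them by Benjamini-Hochberg, and the threshold was 0.05. The remaining 37 genes were left out. Standard errors are the log2 fold change divided by the square root of F. The lowest summed count of any gene in the table was 51. No replicates of one group were alike within sampling noise (chi-square per gene 2.83 to 74.6). Log ratios within a library used a prior count of 0.5. Exon lengths, overlaps and gene positions come from GENCODE 29, matched by identifier, and promoters from RefSeq. Alternatives were DESeq2 1.42.0, other scalings and filters, limma 3.58.1 voom with sample quality weights, a block for replicate number, and each library left out. The pipeline was tested on simulated counts of 12462 genes, 200 of them changed. It called 173 of the changed genes and 15 unchanged ones, the latter 7.98% of its calls.

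The members and all gene lists were chosen with earlier results of these data known. Named genes were the 8 members, *ATF7*, the closest pattern to each member (that of *APH1B* is not reported here), and up to 2 called genes per direction in each list with a mean of at least 50 counts, by size. *TSPAN10*, *ADAM12*, *ADAM28*, *NOTCH1*, cell type markers, genes that did not pass and genes that overlap a member were added after their values were seen. Python 3.11.15 was used for figures.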

Additional observations from a re-analysis of the deposited data

How the results depend on the processing

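*FURIN*, *APH1A* and *APH1B* were called in the same direction under each of 13 alternatives. *ADAM10* was not called with library size only (log2 fold change 0.23) or with the replicate block (0.39), and over the fits that left out 1 library it ran from 0.26 to 0.47, called in 2 of 6. *NCSTN* ran from -0.36 to -0.26 and was called in 4 of those 6. *PSENEN* was called with sample quality weights (-0.94) and ran from -0.80 to -0.39. *ADAM17*, never called, turned to 0.049 with sample quality weights and ran from -0.093 to 0.011 over the fits without 1 library, the highest without LV-*ATF7* replicate 3. *PSEN2*, never called, ran from -0.33 to 0.15 and was 0.15 without LV-NC replicate 3 and 0.0030 without LV-*ATF7* replicate 3. The members called numbered 3 to 6 over the fits without 1 library and 4 to 6 in the others, and the cause of these changes was not tested. All genes called numbered 7290 to 10391, against 8429 in the main fit. Leaving out LV-NC replicate 1 gave 10011, and leaving out any other single library gave 7290 to 7720. Called genes of the other lists numbered 39 to 50. *FRMD8*, *TMED10*, *HM13*, *CDH1* and the tetraspanin gene *TSPAN33*, not called in the main fit, were each called in 3 of 13 alternatives. For each of these genes, the fit without LV-NC replicate 1 and the one with sample quality weights were among them. The log ratios kept their direction in all 8 alternatives each.

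The labels do not say whether same-numbered libraries were paired. Their deviations from the group means correlated at 0.051, -0.011 and 0.053 for numbers 1, 2 and 3, which cannot settle it. With the replicate block 4 members and 8210 genes were called. *PSEN2* and *PSENEN* rest on about 30 counts per library, and the part of depth in their wide intervals was not tested.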

Other observations

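The deposited FPKM values order these genes differently from CPM per kilobase of exon. Dividing counts by FPKM gives the gene length behind each value, and over 10889 genes with at least 50 counts in LV-NC replicate 1 its median was 1.001 times the summed exons of all transcripts in GENCODE 29 and 2.65 times the exons counted once. For *NCSTN* the implied length was 122869 bases, 29.4 times its exons counted once, and only 0.468% of genes had a larger ratio. It was 92382 bases, or 24.6 times, for *PSEN2* and 92461 bases, or 8.60 times, for *ADAM17*. It was 32112 bases, or 6.79 times, for *FURIN*. By the LV-NC means, *FURIN* came before *APH1A* and *ADAM10* per kilobase of exon and after both in FPKM. The FPKM ranges of *FURIN* and *ADAM10* overlapped in LV-NC, so their order there is not settled. For *APH1A*, *ADAM10*, *APH1B* and *PSENEN* the ratio was 2.85, 1.69, 1.94 and 1.39. In FPKM, *NCSTN* in LV-NC was 1.28 ± 0.030 (SD, n = 3) and *APH1A* 16.7 ± 1.67, whereas per kilobase of exon they were 35.7 and 45.1 CPM. The annotation behind the FPKM values is not given in the sources used here, and its part in these ratios was not tested. The comparisons above use the counts.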
